A study of Mus musculus with 8 samples.

Results

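Cytosolic ribosomal protein genes encode the protein parts of the large (Rpl) and small (Rps) subunits of the ribosome that translates nuclear-encoded messages. They were selected by symbol from the deposited count files: Rpl or Rps followed by a number with an optional a, l or x, together with the P stalk genes Rplp0, Rplp1 and Rplp2 and the laminin receptor gene Rpsa. Pseudogenes with a -ps symbol and the Rps6k kinases were left out. The selection holds 83 of 53647 gene identifiers, 51 of the large and 32 of the small subunit; 80 are annotated as protein coding and 3 (Rpl32l, Rpl6l and Rps4l) as processed pseudogenes.

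RNA was sequenced from mouse marrow cells labelled Lin- CD127+, that is, without the surface markers of mature blood lineages and with the interleukin 7 receptor alpha chain. There were 4 libraries from Trerf1 knockout marrow (KO, genotype written Tref1 -/- in the labels) and 4 from wild-type marrow (WT, Trerf1 +/+); Trerf1 encodes a zinc finger transcription regulator. The labels give no other allele or treatment and no age, and do not say how the knockout was made or whether the libraries of a group came from separate mice; p-values below therefore speak only of how these libraries scatter. Total counts were 36184497, 32821991, 33157291 and 66515540 in KO1 to KO4 and 34541825, 63498254, 31109744 and 73414626 in WT1 to WT4, of which between 1062547 and 2376206 per library fell on ribosomal protein genes.

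The labels were checked first on the targeted gene and on the sorted receptor. Trerf1 had 13.35, 12.79, 12.1 and 22.12 CPM (counts scaled to a common total with the TMM factors of edgeR) in KO1 to KO4, against 28.94, 32.06, 27.08 and 22.3 CPM in WT1 to WT4. The library labelled KO4 thus stood at the level of WT4, and the comparison of the groups is given below with and without these libraries. Il7r, which encodes CD127, had between 303.3 and 414.3 CPM in KO and between 268.4 and 373.4 CPM in WT libraries.

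Ribosomal proteins are needed in near-equal numbers, since each ribosome carries a single copy of nearly every one, and cells discard subunits that are not built into ribosomes. Most of their messages begin with a C followed by a run of pyrimidines, the terminal oligopyrimidine (TOP) tract, through which mTOR signalling and the RNA-binding protein Larp1 control their translation and stability together. In bone marrow these genes are known for Diamond-Blackfan anaemia, a human disorder in which loss of a single copy of a gene such as RPS19 or RPL5 impairs red cell production.

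The first bases of the messages were read from RefSeq promoter sequences (mouse build GRCm38.p6), which held 61 of the 83 genes. Shown here are 10 bases before to 20 bases from the annotated start for 6 genes whose messages begin with a pyrimidine tract, in capitals; all but Rps18 are described below for their level or for their counting.
Rps6, chr4:86857348-86857377, minus strand: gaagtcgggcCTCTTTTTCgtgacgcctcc
Rps27, chr3:90213629-90213658, minus strand: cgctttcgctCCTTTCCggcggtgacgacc
Rps18, chr17:33955646-33955675, minus strand: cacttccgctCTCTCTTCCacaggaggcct
Rps10, chr17:27635225-27635254, minus strand: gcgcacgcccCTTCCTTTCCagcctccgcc
Rpl15, chr14:18270967-18270996, minus strand: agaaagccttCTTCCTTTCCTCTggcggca
Rpl35, chr2:39005112-39005141, minus strand: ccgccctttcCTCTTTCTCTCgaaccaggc

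The same window is also shown for Rps27l, Rpl3l and Rpl22. The levels of the paralogs Rps27l and Rpl3l moved apart from those of most other members. Rpl22 was the expressed member with the lowest level. None of these 3 windows has a tract that begins at the annotated start. Within 10 bases of the start, the wider limit used below, those of Rps27l and Rpl3l do hold a tract. Only 14 of the 61 genes have a tract at the start itself, so most lack one. Rps10, which has one, also moved apart from most other members by counts. Whether a tract goes with level or with shared movement was not tested.
Rps27l, chr9:66946076-66946105, plus strand: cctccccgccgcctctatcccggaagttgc
Rpl3l, chr17:24727816-24727845, plus strand: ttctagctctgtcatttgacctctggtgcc
Rpl22, chr4:152325716-152325745, plus strand: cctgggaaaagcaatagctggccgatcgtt

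A tract was counted where a C was followed by at least 4 pyrimidines on the strand of the gene, beginning within 10 bases of an annotated start on either side. It was present in 39 of 61 ribosomal protein genes (63.9%) and in 34.4% of the 27025 gene symbols in the table. At the annotated start itself it was present in 14 ribosomal protein genes (23.0%), against 3.0% of all symbols. The 14 genes were Rpl14, Rpl15, Rpl28, Rpl32l, Rpl35, Rpl35a, Rpl38, Rplp2, Rps6, Rps10, Rps15a, Rps18, Rps21 and Rps27. The motif CCGGAAGT, bound by ETS-family factors such as Gabpa, lay on either strand of the 300-base window (250 bases before to 50 after the start) in 12 ribosomal protein genes (19.7%), against 4.3% of all symbols. The motif AAGATGGC, bound by Yy1, lay on either strand in 5 (8.2%), against 3.2%. The complement of the first motif itself contains a run that counts as a tract, so the counts are not separate from each other. These matches describe the letters in the windows only.

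Ribosomal protein genes took up a large part of all transcripts in every library. Their summed share of TPM (the deposited RSEM values, corrected for transcript length and scaled to the same total in each library) was 10.61, 12.97, 9.972 and 9.327% in KO1 to KO4 and 9.697, 11.71, 11.23 and 9.86% in WT1 to WT4. The groups overlapped, and KO2 and KO4 were the highest and the lowest of the 8 libraries. The mean share was 10.72% ± 1.59 in KO and 10.62% ± 0.997 in WT libraries (SD, n = 4 each), a difference smaller than the spread within either group. As a share of read counts, which are not corrected for length, the same genes took up 3.51% ± 0.58 in KO and 3.42% ± 0.33 in WT libraries. In bulk samples, a different share of cells of some type and a different amount of RNA per cell cannot be told apart.

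**Figure D1:**
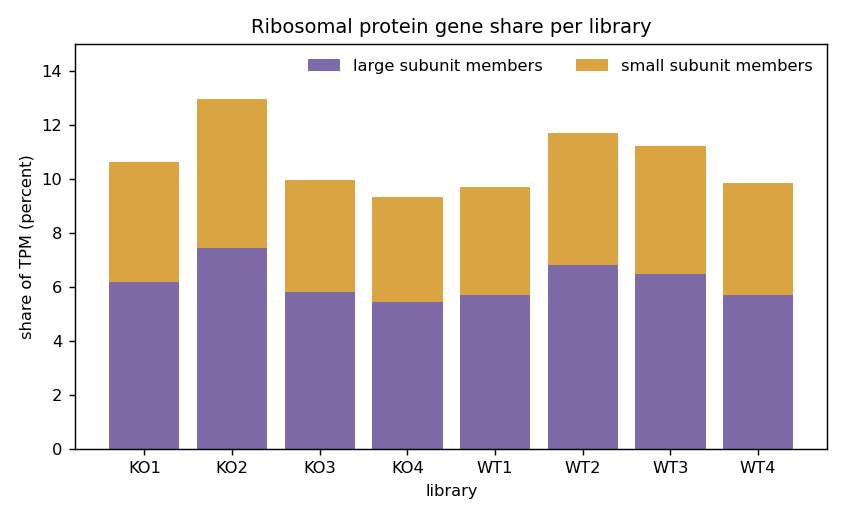
Summed TPM of the large subunit (lower part of each bar) and small subunit (upper part) ribosomal protein genes, in percent of all TPM, for each of the 4 KO and 4 WT libraries. The tallest bar, KO2 at 12.97%, and the shortest, KO4 at 9.327%, are both KO libraries.

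The balance between the subunits varied less than the summed share. Large subunit genes summed to 6.22% ± 0.87 of TPM in KO and 6.18% ± 0.56 in WT libraries, and small subunit genes to 4.50% ± 0.72 in KO and 4.44% ± 0.44 in WT libraries (SD, n = 4 each). The ratio of summed large to summed small subunit TPM was 1.394, 1.349, 1.393 and 1.406 in KO1 to KO4 and 1.433, 1.393, 1.37 and 1.379 in WT1 to WT4. Across the 8 libraries the highest ratio was 1.062 times the lowest, whereas the highest summed share was 1.39 times the lowest. The mean ratio was 1.386 ± 0.025 in KO and 1.394 ± 0.028 in WT libraries, again within the spread of each group.

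Levels of individual genes were compared as TPM, which is per length. Of the 83 genes, 77 were protein coding with a mean of at least 100 TPM over the 8 libraries and are called expressed here. Their median mean level was 1083 TPM, and 57 of the 77 lay within 2-fold of it. Rps27, a small subunit zinc finger protein, had 5210 ± 868 TPM in KO and 4912 ± 535 TPM in WT libraries (SD, n = 4 each here and below), among the highest levels. Rps19, the gene most often mutated in Diamond-Blackfan anaemia, had 4513 ± 977 and 4301 ± 558 TPM in KO and WT libraries, and Rpl32 of the large subunit had 4352 ± 785 and 4358 ± 464 TPM. The ranges of these 3 genes over the libraries overlapped. Rpl22, known in mice for a role in the development of alpha-beta T cells, was the lowest of the expressed genes with 247.8 ± 31.3 TPM in KO and 260.4 ± 47.9 TPM in WT libraries.

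The 6 other genes were far lower. Rps4l, a processed pseudogene by annotation, averaged 38.88 ± 9.99 TPM in KO and 35.09 ± 13.7 TPM in WT libraries, and Rpl3l, the striated muscle paralog of Rpl3, averaged 10.26 ± 2.02 and 7.18 ± 2.37 TPM. Rpl6l averaged 5.83 ± 1.55 TPM in KO and 4.29 ± 1.49 TPM in WT libraries, and Rpl32l averaged 1.82 ± 0.58 and 3.14 ± 1.70 TPM. Rpl39l, a paralog known from testis, had 2, 4, 16 and 0 counts in KO1 to KO4 and 18, 33, 8 and 4 counts in WT1 to WT4. Rpl10l, another testis paralog, had 0 counts in all 8 libraries, which at a floor of 3 counts allows a level of up to 0.0409 to 0.0964 CPM, depending on the library; such limits cover counting error only. Among the paralogs with a symbol ending in l, Rps27l alone was expressed, with 428 ± 18 TPM in KO and 409.8 ± 41.2 TPM in WT libraries.

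**Figure D2:**
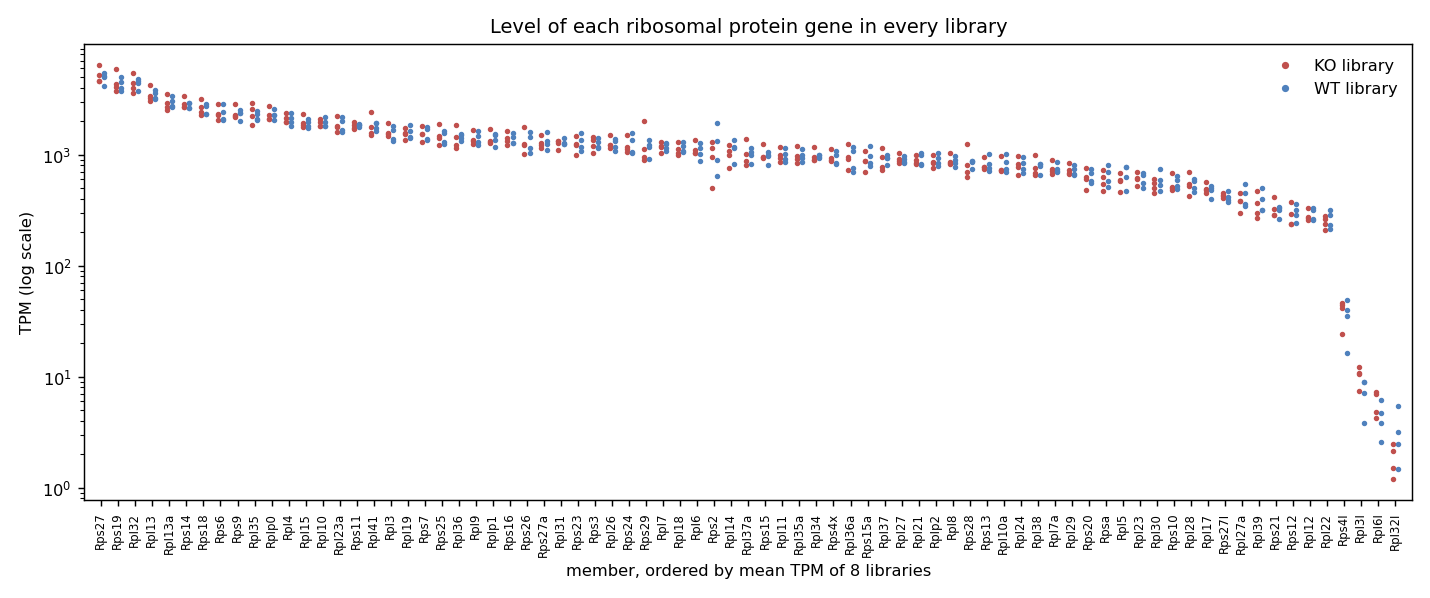
TPM on a log scale of 77 ribosomal protein genes in every library, in order of mean TPM, with KO libraries in red to the left of WT libraries in blue; the low Rpl39l and Rpl10l are not drawn. Levels of the 73 expressed genes drawn run from 5061 TPM (Rps27) to 254.1 TPM (Rpl22), KO and WT points overlap for nearly all genes, and Rps2 and Rps29 have the widest scatter among the abundant genes.

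As TPM, the order and spacing of these levels were nearly the same in every library. By counts per kilobase the order differed, with a Spearman's rho of 0.684 against the order by TPM over the 77 genes. The log2 TPM of the 77 expressed genes in each library correlated with the mean of the other 7 libraries at Pearson's r between 0.981 and 0.9966, a description across genes, which are not independent replicates and share library and length corrections. When each gene's log2 TPM was taken relative to the median member of its own library, the SD across the 8 libraries had a median of 0.098 and was under 0.2 for 72 of the 77 genes, whereas the SD across genes was 0.95. The 5 remaining genes included Rps2, with an SD of 0.478, Rpl5, with 0.297, Rps29, with 0.254, and Rps27l, with 0.248 (log2 relative to the median member). The KO minus WT differences in relative level ran from -0.244 (Rps2) to 0.162 on the log2 scale, with Rpl5 at -0.154.

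Rps2, a small subunit protein near the entry of the messenger RNA channel, had 550.5, 503.5, 408.2 and 203 CPM in KO1 to KO4 and 359.4, 739.8, 535.8 and 280 CPM in WT1 to WT4. The libraries numbered 4 were the lowest of each group and WT2 was the highest of all. Rps29, a small zinc-binding protein of the small subunit, had 206.5, 407, 196.4 and 175.7 CPM in KO1 to KO4, against 173.4, 213.3, 214.2 and 286.4 CPM in WT1 to WT4. KO2 stood above every other library for this gene, and its high value was shared by most other members.

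Ribosomal protein genes varied together from library to library. After removing group means, the log2 CPM of the 81 genes that passed the count filter had a mean pairwise Pearson's r of 0.675 over the 8 libraries, against 0.001 for all 16352 genes tested. The value was 0.7 among 49 large and 0.629 among 32 small subunit genes. These correlations share libraries, depth and scaling, and are given as a description. The scaling centres the bulk of genes in each library, which by itself holds the value for all genes low. That value is not a background matched for level. The mean r was 0.322 among 15 other genes known for TOP messages, mostly translation factors such as Eef1a1 and Pabpc1, 0.326 among 76 genes of the mitochondrial ribosome, and 0.134 among 40 genes of ribosome biogenesis. Of the 15 genes, 9 were in the promoter table, and 4 of these had a tract by the definition above. For 62 of the 81 genes, the correlation with the mean of the other members was above 0.8, led by Rps25 of the small subunit at 0.991 and Rplp2 of the P stalk at 0.99. It was lowest for Rps4l (-0.531), Rps27l (0.091), Rpl24 (0.181), Rpl3l (0.291) and Rps10 (0.349).

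The shared movement was mainly that of KO2, which was high, and of KO4 and WT1, which were low. Relative to its own 8-library mean, the median member lay at 0.362 in KO2 and at -0.191 in KO4 on the log2 CPM scale, and in the other libraries it lay between -0.161 (WT1) and 0.0859 (WT2). In KO2, 80 of 81 members were above their own mean, against 27 in KO1, 41 in KO3 and 7 in KO4, and against 9, 57, 53 and 29 in WT1 to WT4. Of the 77 expressed genes, 71 had their highest CPM in KO2, as did 16.1% of all genes tested, and 40 had their lowest CPM in KO4, as did 13.3% of all genes tested. A KO library was both the highest and the lowest for 41 of the 77, against 22.6% of all genes tested. The median expressed member was 1.46 times as high in KO2 as in KO4.

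The P stalk genes are examples. Rplp0, which anchors the stalk that recruits elongation factors to the ribosome, had 1755, 2255, 1725 and 1652 CPM in KO1 to KO4 and 1551, 1875, 1715 and 1880 CPM in WT1 to WT4. Rplp1 had 345.1, 464.5, 357.3 and 353.4 CPM in KO1 to KO4 and 294.9, 359.6, 387.2 and 397.5 CPM in WT1 to WT4. Rplp2 had 231.8, 307.1, 241.6 and 225.8 CPM in KO1 to KO4 and 229.9, 268.5, 253.8 and 247 CPM in WT1 to WT4. In all 3, KO2 was the highest library and the other KO libraries lay within the WT range or close to it.

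Rps27l, known as a p53-induced paralog of Rps27, varied little, and KO2 did not stand out. It had 143.7, 149.6, 155.3 and 140.9 CPM in KO1 to KO4 and 133.3, 121.8, 149.2 and 145.8 CPM in WT1 to WT4. The highest library was KO3, with KO2 next, and the highest value was 1.276 times the lowest. Rps27 itself had 818.5, 1091, 762.2 and 677.8 CPM in KO1 to KO4 and 660.2, 749, 785.3 and 913.9 CPM in WT1 to WT4, with KO2 highest. Rps4l ran the other way, with 30.59, 16.52, 28.53 and 27.68 CPM in KO1 to KO4 and 26.04, 30.06, 11.85 and 22.7 CPM in WT1 to WT4. KO2 and WT3 were its lowest libraries.

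**Figure D3:**
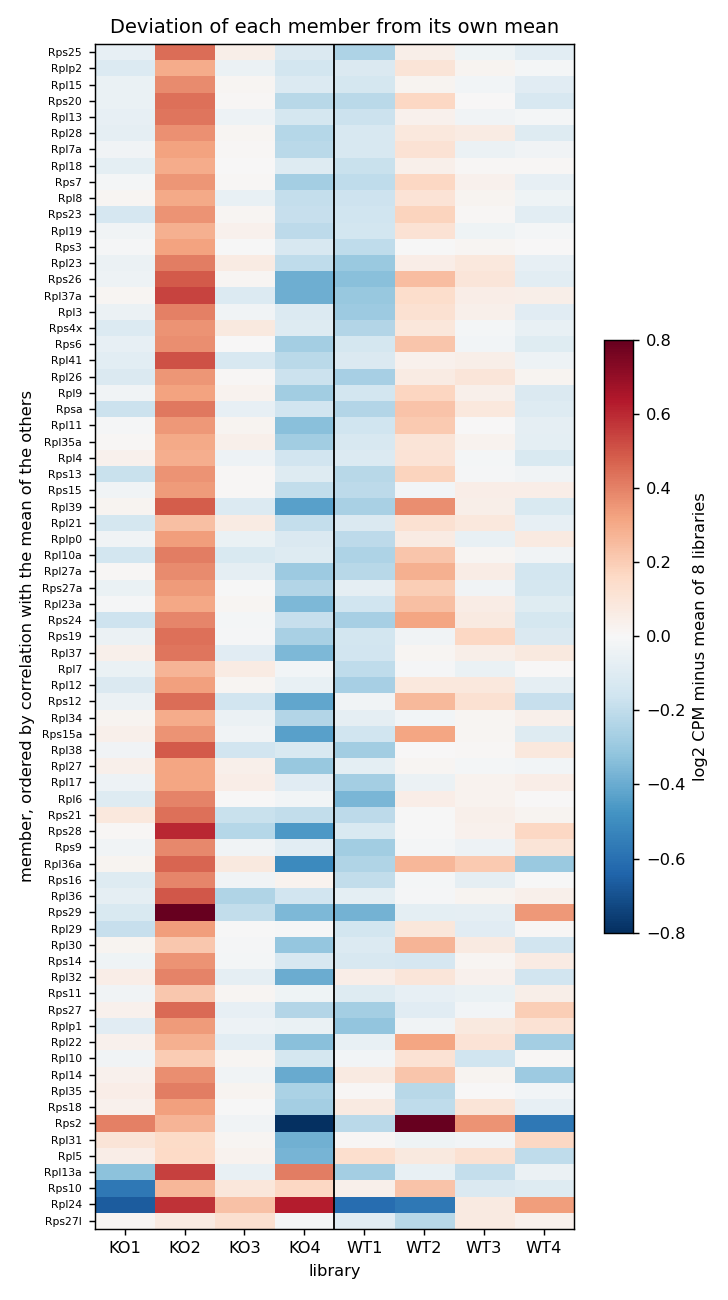
Log2 CPM of 73 expressed ribosomal protein genes, each minus its own mean over the 8 libraries (colour), for KO1 to KO4 and WT1 to WT4 (columns, left and right of the line), with genes ordered by their correlation with the mean of the other members. The KO2 column is red (above the mean) in every row, KO4 and WT1 are mostly blue, and Rps2, Rpl13a, Rps10, Rpl24 and Rps27l at the bottom follow patterns of their own.

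Other measured properties of the libraries moved in part with these genes. The 15 genes listed for TOP messages had their highest median deviation in KO2 as well (0.222 on the log2 CPM scale) and their lowest in WT1 (-0.128). The 1769 other genes under 1000 bases that were tested had median deviations of -0.122, 0.104, 0.0142 and 0.219 in KO1 to KO4 and -0.0398, 0.0213, 0.0313 and 9.4e-05 in WT1 to WT4, so KO4 was the highest and KO2 the next. Unspliced transcripts of type TEC, which still await experimental support, took up 0.1173, 0.1186, 0.1255 and 0.3075% of counts in KO1 to KO4 and 0.1893, 0.2083, 0.2686 and 0.1476% in WT1 to WT4, with KO4 highest. The 12 gate and early lymphoid genes summed to between 9820 (KO4) and 13830 CPM (KO2) in KO and between 9986 and 11610 CPM in WT libraries, so the same 2 libraries were at the ends there. Without Ly6d they summed to 6162 (KO4) to 8930 CPM (KO2) in KO and 7132 to 7723 CPM in WT libraries. Not every gene of this list followed that order, and Il7r for example was highest in KO3 (414.3 CPM). None of the marker lists of other cells had KO2 and KO4 as the extremes of the 8 libraries: the 12 erythroid markers summed to 615.8 to 782 CPM in KO and 516.5 to 1141 CPM in WT libraries, the 10 mature B and plasma cell markers to 937.3 to 1114 CPM in KO and 735.9 to 1330 CPM in WT libraries, the 8 T cell markers to 104.2 to 349.1 CPM in KO and 76.55 to 239.9 CPM in WT libraries, and the 10 myeloid markers to 498.6 to 710.7 CPM in KO and 502.7 to 568.5 CPM in WT libraries. The 9 markers of group 2 innate lymphoid cells summed to 64.89 to 146.4 CPM in KO and 102.7 to 228.9 CPM in WT libraries, with KO2 lowest and KO4 highest among KO libraries. No marker on these lists was at 0 in all 8 libraries. Single genes made up much of these sums: without Tfrc, the transferrin receptor, the other 11 erythroid markers summed to 285.7, 165.2, 51.54 and 49.94 CPM in KO1 to KO4 and 745.8, 267.4, 57.19 and 58.85 CPM in WT1 to WT4. By edgeR estimate 1 of the 12 erythroid markers was above 0 and 11 below, with a median log2 fold change of -1.044 and 0 called. The mature B and plasma cell sum without Xbp1 was 464.2 to 519.2 CPM in KO and 369.3 to 563.3 CPM in WT libraries, and the T cell sum without Cd4 was 42.94 to 70.55 CPM in KO and 38.69 to 52.98 CPM in WT libraries. The estimates were above 0 for all 8 tested mature B and plasma cell markers (median 0.196), for 7 of 8 T cell markers (median 0.406), for 10 of 10 myeloid markers (median 0.605) and for 1 of 9 markers of group 2 innate lymphoid cells (median -0.605), with 0 called. The part of these properties in the level of ribosomal protein genes was not tested.

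The deposited files quantify each gene in 2 ways, and for some ribosomal protein genes these differ widely. Per the file headers, featureCounts was run with its defaults, which leave out reads that map to several places or that overlap several genes; RSEM divides such reads between the candidates. For each gene, its share of counts was divided by its share of expected counts in the same library. Total counts were 3.665 (KO1) to 4.003 (KO4) times total expected counts. A ratio under 100% is therefore relative to all genes and does not by itself mean fewer counts than expected counts. The median over the 77 expressed genes was 87.5%; 7 genes lay under 50%, 54 between 50 and 100%, and 16 at or above 100%. The lowest ratios were those of Rpl24 (1.12%) and Rps10 (2.58%), followed by Rpl13a (7.42%), Rpl23a (12.9%), Rps6 (46.0%), Rpl35 (46.3%) and Rpl15 (49.8%). In the annotation of the count files, 47.0% of the exon bases of Rpl24 also belong to exons of Gm28037, 28.7% of those of Rps10 to another gene, mostly the readthrough locus RPS10-NUDT3, 32.8% of those of Rpl13a, mostly to Gm45713, 62.3% of those of Rpl23a, mostly to Tlcd1, and 66.2% of those of Rpl35, mostly to Wdr38. Rps6, the substrate of S6 kinase, shares no exon base with another gene but has 4 annotated -ps pseudogenes. Rpl31, with 24 such pseudogenes and 25.3% of its exon bases shared, had a ratio of 79.2%. Rps19, with 14 such pseudogenes, had a ratio of 88.3%. The part of overlap and of pseudogenes in these ratios was not tested. The median overlap over all members was 0, and 37 members had any.

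The choice of file therefore decides what is seen of such a gene. Rpl24, a large subunit protein at chromosome 16, 55786638 to 55791798 (GRCm39, plus strand), had 2.006, 4.747, 3.747 and 4.913 CPM in KO1 to KO4 and 2.086, 2.136, 3.339 and 4.007 CPM in WT1 to WT4. Its level by RSEM was 775.7, 980.1, 825.4 and 652.6 TPM in KO1 to KO4 and 742.2, 954.7, 834.8 and 677 TPM in WT1 to WT4. By counts KO4 was its highest library and KO1 its lowest, whereas by TPM KO2 was the highest and KO4 the lowest. Rps10, a Diamond-Blackfan anaemia gene at chromosome 17, 27849392 to 27855643 (GRCm39, minus strand), had between 2.925 and 5.24 CPM in KO and between 4.013 and 5.106 CPM in WT libraries, against 477.6 to 688.4 TPM in KO and 493.9 to 640.7 TPM in WT libraries. Differences between the groups in Rpl24, Rps10, Rpl13a and Rpl23a are therefore uncertain. Genes with ratios well over 100% were the low Rpl32l (472%), Rpl39l (141%) and Rpl3l (139%), and Rps27l and Rps21 (127% each).

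**Figure D4:**
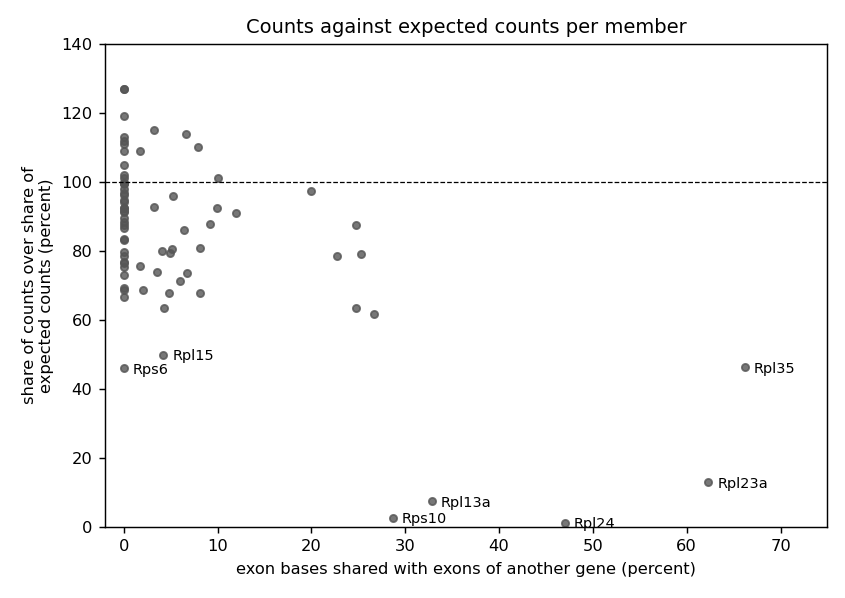
Share of counts over share of expected counts (percent) for each of 73 expressed ribosomal protein genes, against the percentage of its exon bases shared with exons of another gene. The dashed line marks equal shares; the 7 labelled genes lie under 50%, of which Rps6 and Rpl15 share 0 and 4.2% of their exon bases.

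The 300 -ps pseudogenes took up 0.0216, 0.0494, 0.0323 and 0.0516% of counts in KO1 to KO4 and 0.0241, 0.0317, 0.0286 and 0.0308% in WT1 to WT4. Of expected counts they took up 0.0314, 0.0327, 0.0258 and 0.0175% in KO1 to KO4 and 0.0284, 0.0393, 0.0323 and 0.0190% in WT1 to WT4. KO4 was thus the highest of the 8 libraries by counts and the lowest by expected counts.

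In the comparison of KO with WT, the edgeR quasi-likelihood test with Benjamini-Hochberg adjustment over all 16352 genes called 0 of 81 ribosomal protein genes at an adjusted p of 0.05. The background was 0.0% of all genes tested, so the 0 holds for the whole table. DESeq2 likewise called 0. At an unadjusted p under 0.05 there was 1 gene higher in KO, Rpl3l, and 0 lower, against 1.04% and 0.93% of all genes tested. The KO and WT values did not overlap for 1 gene, higher in KO, against 0.74% of all genes tested for that direction and 0.544% for the other. The estimates were above 0 for 69 and below 0 for 12 of the 81 genes, against 51.7% and 48.3% of all genes tested. Their median log2 fold change was 0.056, against 0.0075 for all genes tested, and it was 0.055 for large and 0.065 for small subunit genes. The members share the high value of KO2, and without KO2 the estimate was above 0 for 18 genes with a median of -0.0695.

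In the fit of all 8 libraries the estimates were small and their intervals narrow. That fit includes KO4, in which Trerf1 stood at the level of WT4. Without KO4 the members' median log2 fold change was 0.132, and intervals are given here for the fit of all 8 libraries only. Of the 77 expressed genes, 75 had a log2 fold change within 0.25 of 0, and the interval of 2 standard errors on either side lay within 0.5 for 73 and within 1 for 76. The coefficient of variation between replicates had a median of 14.6% over members, against 21.6% over all genes tested and 12.6% over the other genes of at least 50 CPM.

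Rpl3l (chromosome 17, 24946794 to 24955117 in GRCm39, plus strand) had 10, 13.16, 12.81 and 10.52 CPM in KO1 to KO4 and 7.126, 8.394, 5.207 and 9.968 CPM in WT1 to WT4. Every KO library was above every WT library, with KO1 and WT4 almost level; with RLE factors, without the filter, in DESeq2 and by RSEM expected counts the groups overlapped. Its log2 fold change of 0.59 ± 0.21 (SE) had an unadjusted p of 0.0172 and an adjusted p of 0.999 by edgeR, and it was 0.58 with an unadjusted p of 0.0551 in the fit of RSEM expected counts. Rpl3l is low, with 359, 427, 417 and 698 counts in KO1 to KO4 and 246, 554, 170 and 699 counts in WT1 to WT4.

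The other genes with the smallest p of those higher in KO did not pass the unadjusted threshold. Rpl13a, which besides its place in the large subunit is known from human cells as a part of a translation-silencing complex, had 51.38, 94.02, 62.01 and 85.7 CPM in KO1 to KO4 and 53.47, 61.76, 56.6 and 62.33 CPM in WT1 to WT4. KO2 and KO4 were high and the groups overlapped, with a log2 fold change of 0.32 ± 0.17 by counts and 0.02 by RSEM expected counts. Rpl6l had a log2 fold change of 0.57 ± 0.39 at a level near 1 CPM.

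The genes with the smallest p of those lower in KO were further from the threshold. Rps2, whose values per library are given above, had a log2 fold change of -0.20 ± 0.33. Rpl5, which carries the 5S ribosomal RNA into the large subunit together with Rpl11, had 440.2, 473.6, 431.9 and 327.3 CPM in KO1 to KO4 and 466.3, 448, 460.7 and 367.8 CPM in WT1 to WT4. The libraries numbered 4 were again the lowest of each group, and the log2 fold change was -0.06 ± 0.13. Rpl31 had -0.05 ± 0.12 (log2 fold change ± SE). Without KO4 the estimates of all 3 genes were above 0.

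**Figure D5:**
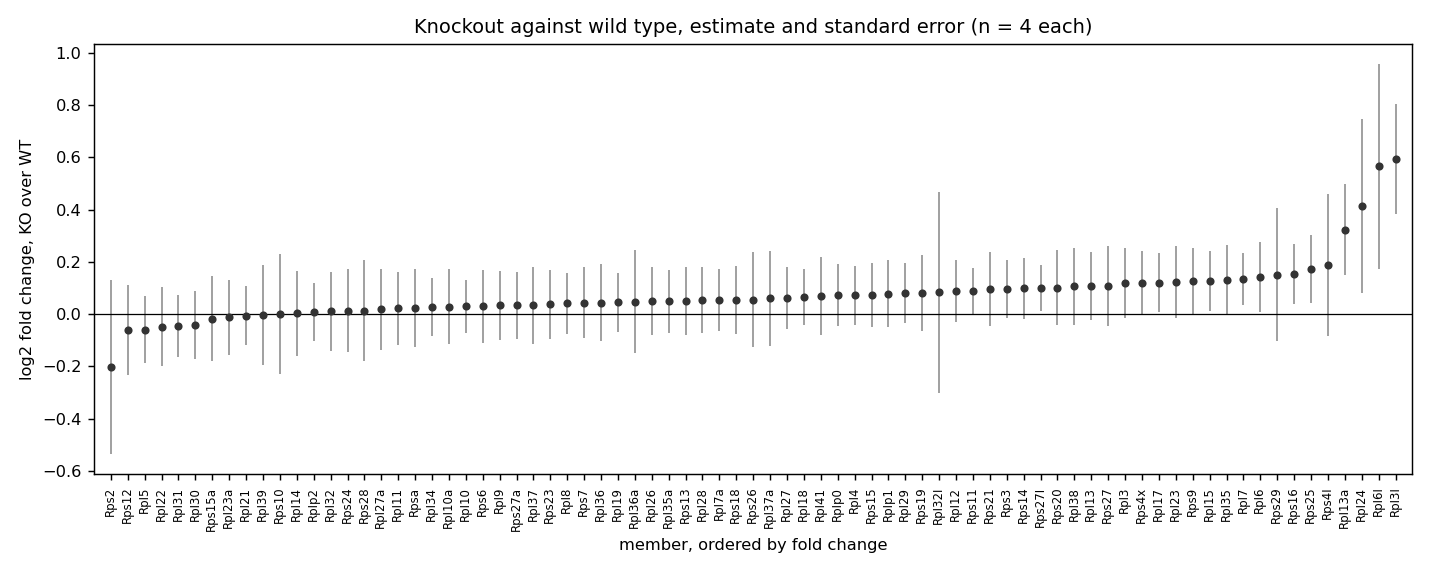
Log2 fold change of KO over WT from the edgeR fit for 77 of the 81 tested ribosomal protein genes, in order of size; points are estimates and bars are 1 standard error to either side (n = 4 libraries per group). Most points lie between -0.1 and 0.2, from -0.20 for Rps2 to 0.59 for Rpl3l, and 67 of them are above 0.

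Genes known for Diamond-Blackfan anaemia in humans gave 8 estimates above and 2 below 0 among 10, with a median log2 fold change of 0.034 and 0 called. Rps19 had 962.3, 1354, 991.2 and 830 CPM in KO1 to KO4 and 898.7, 974.4, 1118 and 919.2 CPM in WT1 to WT4, and the groups overlapped. As TPM, Rps24 had 1211 ± 206 in KO and 1249 ± 258 in WT libraries, Rps26 had 1309 ± 317 and 1307 ± 268, and Rps7 had 1546 ± 210 and 1547 ± 212. Rpl11, the partner of Rpl5, had 990 ± 135 TPM in KO and 984.3 ± 125 TPM in WT libraries, Rpl26 had 1268 ± 164 and 1239 ± 146, and Rpl35a had 979.8 ± 157 and 975.7 ± 111. In each of these 6 genes the group means differed by less than the SD of either group. The 4 X-linked genes gave 3 estimates above and 1 below 0 in the edgeR fit of counts. As TPM, Rps4x had 957.2 ± 113 in KO and 932.7 ± 122 in WT libraries, and Rpl10 had 1914 ± 139 and 1944 ± 175. Rpl36a had 956.7 ± 210 and 928.2 ± 234 TPM, and Rpl39, at the peptide exit tunnel, had 351.4 ± 92.6 and 381.2 ± 87.3 TPM. The mean of Rpl10 was thus lower in KO as TPM, although its log2 fold change by counts was 0.03.

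Without both libraries numbered 4, 12 genes of the whole table were called, all lower in KO (0.0736% of 16300), and none was a ribosomal protein gene. In that fit 5 ribosomal protein genes had KO values wholly above WT values, which is 6.1% of the 82 members tested, against 6.87% of all genes tested, and 0 had KO values wholly below WT values, against 8.51%. The median log2 fold change of the members was 0.122.

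The other genes of the pathway were read in the same fit, and 0 of them were called. Of 10 ribosomal protein genes outside the symbol rule, all 10 estimates were above 0, with a median log2 fold change of 0.116. Among them Rpl9-ps6 had 18.69, 43.9, 33.48 and 50.53 CPM in KO1 to KO4 and 17.26, 24.03, 24.84 and 29.97 CPM in WT1 to WT4, with a log2 fold change of 0.61 ± 0.27 (unadjusted p 0.0480, edgeR adjusted p 0.999). KO1 was its lowest KO library, and KO2 and KO4 its highest. By its symbol Rpl9-ps6 is a copy of Rpl9, and reads can be split between the copies.

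Of the 15 genes listed for TOP messages, mostly of translation factors, 11 estimates were above and 4 below 0, with a median log2 fold change of 0.077. The elongation factor subunit gene Eef1d had 0.11 ± 0.09 and Hnrnpa1, a splicing factor, had 0.13 ± 0.11, whereas the initiation factor genes Eif3f and Eif4b had -0.43 ± 0.41 and -0.03 ± 0.14 (log2 fold change ± SE). Eif3f had 170.2, 117.8, 92.85 and 48.15 CPM in KO1 to KO4 and 82.85, 262.4, 142.9 and 87.17 CPM in WT1 to WT4; as for Rps2, KO4 was its lowest library and WT2 its highest.

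Of 19 regulators of growth and TOP translation, 6 estimates were above and 13 below 0, with a median of -0.062. Mtor, the kinase that senses nutrients, had 39.23, 32.46, 31.27 and 37.4 CPM in KO1 to KO4 and 52.23, 53.65, 35.87 and 37.43 CPM in WT1 to WT4. WT1 and WT2 stood above the rest, and the log2 fold change was -0.35 ± 0.15 (unadjusted p 0.0434, edgeR adjusted p 0.999). Tsc2, its upstream inhibitor, had -0.24 ± 0.14, and Yy1 and Larp1 had 0.10 ± 0.11 and 0.14 ± 0.20. Of 40 genes of ribosome biogenesis, 17 estimates were above and 23 below 0, with a median of -0.025. The RNA polymerase I subunit genes Polr1a and Polr1b had -0.21 ± 0.11 and -0.20 ± 0.10, and Sbds, which helps release the large subunit for translation, and the polymerase I factor gene Taf1b had 0.15 ± 0.12 and 0.12 ± 0.10.

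By RSEM expected counts the members' estimates moved closer to 0. Of 80 ribosomal protein genes tested in both, 58 had the same sign, 22 were above 0 by counts and below 0 by expected counts, and 0 the other way round. In that fit 46 estimates were above and 34 below 0, with a median log2 fold change of 0.0213, and 0 members and 0 of 13630 genes were called (0.0%).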

How the data were processed

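Per the labels' protocols, libraries were made from 200 ng of total RNA with a low-input kit, which does not mark strand. The authors deposited whole-number read counts per gene from featureCounts 1.6.4, per the file headers, run with 4 threads and otherwise default settings. The authors also deposited RSEM expected counts, which are estimates, and RSEM TPM values per gene. RSEM 1.3.1, STAR 2.6.0a, Picard 2.19 and build mm10 are named in the submitters' processing notes; the annotation path in the header names GRCm39, and coordinates of the count files are taken as that. Marker, pathway and member lists were chosen with earlier results of these data known.

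In R 4.3.3, edgeR 4.0.16 was fitted to the counts of all 8 libraries (filterByExpr, TMM, quasi-likelihood, no covariate, Benjamini-Hochberg over all genes, threshold 0.05; DESeq2 1.42.0 as alternative, and expected counts rounded to whole numbers for the same fit). Log2 CPM used a prior count of 3. Genes were matched to symbols for 97.1% of identifiers. Summed shares, ratios and correlations are descriptions without a test. Named are the 4 genes with the smallest p in each direction, the 4 highest and lowest by TPM and by ratio of counts to expected counts, 4 lists of members, and the 2 with the smallest p in each direction from each pathway list; Rps4l, Rps29, Rps25, Rps6, Rpl35, Rpl15, Rps21 and Rpl22 were added after their values were seen. Some genes that the rule names are not reported here and are not drawn. On simulated data for KO against WT, 16% of 100 genes changed 1.5-fold and 46% of 100 changed 2-fold were recovered among 16352 genes, with 3 false calls. The changed genes were drawn at random from all genes tested.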

Additional observations from a re-analysis of the deposited data

Results flagged for a closer look

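Each of 77 ribosomal protein genes and 7 summed values was examined in both groups of 4 libraries, 168 groups in all. In 13 of them a library stood apart from the other 3 of its group by more than the 95% critical value of Dixon's gap test; chance gives about 1 in 20 groups, and the genes share libraries and vary together. In 10 of the 13, KO2 lay above the other KO libraries. The KO2 values were 2255 CPM for Rplp0, against 1652, 1725 and 1755 CPM in the other KO libraries, 464.5 CPM for Rplp1, 407 CPM for Rps29, 345.2 CPM for Rpl10a, 1529 CPM for Rpl13, 1330 CPM for Rpl3, 202.6 CPM for Rpl38, 472.5 CPM for Rpl41, 1257 CPM for Rps9 and 484.7 CPM for Rpsa. In the other 3, a WT library lay below the rest of its group: Rpl35 had 327.1 CPM in WT2, Rpl6 had 417.9 CPM in WT1, and Rps3 had 888 CPM in WT1. The genes with a library that stood apart belong to both subunits.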

How the results depend on the processing

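The count of 0 ribosomal protein genes called held in all 16 alternatives. The number with an estimate above 0, 69 as reported, ranged from 18 (without KO2) to 80 (without KO4) when each library was left out in turn, and the median log2 fold change from -0.0695 to 0.132 in the same fits. Estimates below 0 became positive without KO4 for Rps2 (0.026), Rpl5 (0.042) and Rpl31 (0.060), without WT2 for Rps2 (0.078), and for Rpl31 without WT4 (0.0044) and without both libraries numbered 4 (0.107). With each library left out in turn, the log2 fold change ranged from -0.387 to 0.078 for Rps2, -0.131 to 0.042 for Rpl5 and -0.105 to 0.060 for Rpl31; the cause was not tested. The KO minus WT difference in summed level, 0.166% of scaled counts, ranged from -0.120 (without KO2) to 0.346 (without KO4). The spread of levels among genes, a mean SD of 0.957 on the log2 TPM scale, was 1.581 with counts per kilobase, in which genes that lose most of their counts stand low. The share of genes with a pyrimidine tract, 63.9% within 10 bases of the start, was 23.0% at the start itself and 86.9% within 25 bases. With the replicate number as a block, 0 members were called, 65 estimates were above 0 and the median was 0.0415; over all genes, 289 higher and 345 lower passed an unadjusted p of 0.05, against 170 and 152 without it. Libraries with the same number deviated together at r = 0.362, 0.309, -0.031 and 0.119, and not every library correlated best with its own number, so the numbers were not taken to pair the libraries. With 4 libraries per group, changes of 2-fold or less could often be missed over the whole table. In the simulated data 46% of genes changed 2-fold and 16% of those changed 1.5-fold were recovered. The changed genes were drawn from all genes tested, whose median coefficient of variation was 21.6%, against 14.6% over members. Recovery was not simulated for the members alone.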
